A study of Mus musculus with 4 samples.

Results

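The Hox cluster genes were taken as every symbol made of Hox, a cluster letter from a to d and a number, with a row in all 4 count tables. This gave 39 of the 31735 gene rows that the tables share. The values below are of 38 of them, kept whether or not they had a count, and every sum and share of Hox counts is over these 38. They encode homeodomain transcription factors and fall into 13 paralog groups, each with up to 4 members that occupy the same place in the 4 clusters.

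The study profiled ribosome-bound RNA from the rostral pons of adult, untreated control mice of the Cbln2-TRAP line NIDA172, called Cbln2-EGFP-Rpl10a-NIDA172 in the sample titles. In this line ribosomal protein L10a fused to EGFP is made under regulatory sequence of Cbln2, and antibodies against EGFP pull down the tagged ribosomes with their RNA. All 4 libraries are of this immunopurified RNA, form 1 group and are replicates 1 to 4 of their titles. Whether a replicate is 1 animal or a pool is not stated in the labels. Replicate 4 carries the label of replicate 3 at the end of its description, and the names under which replicates 3 and 4 were deposited number them 1 and 2. The titles were followed. Replicates 1 and 2 carry the library numbers 1666 and 1667, and replicates 3 and 4 carry 2469 and 2470. What these numbers mark is not stated. A chi-square test of replicate 3 against replicate 4 gave 215 for each degree of freedom over 10632 genes, where sampling noise alone gives about 1, and both were kept. The same test gave 153 for replicate 1 against replicate 2. It gave 337 to 652 for replicate 1 or 2 against replicate 3 or 4, so these pairs differed more. RNA of the unpurified tissue was not used here, so that levels cannot be divided between tagged cells and RNA carried over from other cells of the dissected tissue. In such bulk RNA, fewer cells of a type and less RNA per cell also cannot be told apart.

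Hox genes give the segments of the embryonic hindbrain and spinal cord their identity along the head-to-tail axis. Genes at the 3′ end of a cluster, with low paralog numbers, are active farthest toward the head, and genes at the 5′ end are confined to the tail end, the limbs and the genital region. The first hindbrain segment, from which much of the rostral pons and the cerebellum arise, forms without Hox expression in mouse embryos, and Hoxa2 has the most rostral limit of the family, at the border of the first and the second segment. Adult hindbrain neurons often retain part of the Hox code of their segment of origin.

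The 4 clusters lie on different mouse chromosomes (GRCm38, the assembly of mm10, with gene models of GENCODE M21). The genes described here span 98.5 kb in Hoxa on chromosome 6, from 52162417 to 52260880 on the minus strand, with 10 genes. Hoxb spans 174 kb on chromosome 11 from 96194316 to 96368256 and has 10 genes. Hoxc spans 116 kb on chromosome 15 from 102921103 to 103036852 and has 9 genes. Hoxd spans 96.8 kb on chromosome 2 from 74668310 to 74765142 and has 9 genes. The genes of Hoxb, Hoxc and Hoxd lie on the plus strand.

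Hoxa2 and Hoxd1 were the members with a count in every library, and their proximal promoters are shown for that reason. Each line gives the 250 bases before the gene's start, 5′ to 3′ on the gene's strand (RefSeq, GRCm38.p6), with the CG dinucleotides in capitals. The Hoxa2 stretch is chr6:52164832-52165081 on the minus strand and the Hoxd1 stretch is chr2:74762730-74762979 on the plus strand.
Hoxa2: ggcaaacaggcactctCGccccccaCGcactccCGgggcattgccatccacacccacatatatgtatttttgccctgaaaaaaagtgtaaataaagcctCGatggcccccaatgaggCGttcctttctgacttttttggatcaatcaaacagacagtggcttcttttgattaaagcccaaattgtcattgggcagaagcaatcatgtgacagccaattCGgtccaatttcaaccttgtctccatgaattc
Hoxd1: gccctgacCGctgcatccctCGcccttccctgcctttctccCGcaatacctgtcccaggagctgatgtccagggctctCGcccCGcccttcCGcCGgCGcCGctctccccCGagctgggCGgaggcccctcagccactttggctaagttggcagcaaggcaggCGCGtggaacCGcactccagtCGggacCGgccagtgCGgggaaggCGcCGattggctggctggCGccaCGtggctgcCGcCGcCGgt
The Hoxd1 stretch holds 24 CG dinucleotides, and 12% of the 32851 promoters of the table hold at least as many in the same length. The Hoxa2 stretch holds 6, and 50.4% of the promoters hold at least as many. A CG reads the same on both strands, and 92.1% of all promoters hold at least 1. The promoter table has 24 entries for 22 of the members, with 2 to 35 CG and a median of 12.5, against a median of 6 over all promoters. The median was 13 in the 8 entries of members with a count and 12.5 in the 16 entries of members without one. CG content is a description of these windows and was not tested against expression.

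Most Hox genes had no counted read. Of the 38 members, 27 (71.1%) were at 0 counts in all 4 libraries, beside 42.2% of all shared rows. Of these 27, 18 share no exon base with another annotated gene. In the rest, reads may have been set aside or assigned to the other gene. At least 1 count in every library was found for 2 members (5.26%), beside 41.0% of all rows. A level of 1 CPM (1 count per 1000000 counts of the library) in all 4 libraries was reached by 0 members, beside 33.5% of all rows. In at least 1 library 5 members reached it (13.2%), beside 48.7% of all rows, and each of these 5 reached it in 1 library alone. Without replicate 4 the number was 2. Among 134 other homeobox and PAX genes, a set drawn up by symbol after the Hox values were seen, 32.8% reached 1 CPM in every library and 36.6% were at 0 in every library. The members were chosen with earlier results of these data known, so these shares describe the family and carry no test.

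**Figure D1:**
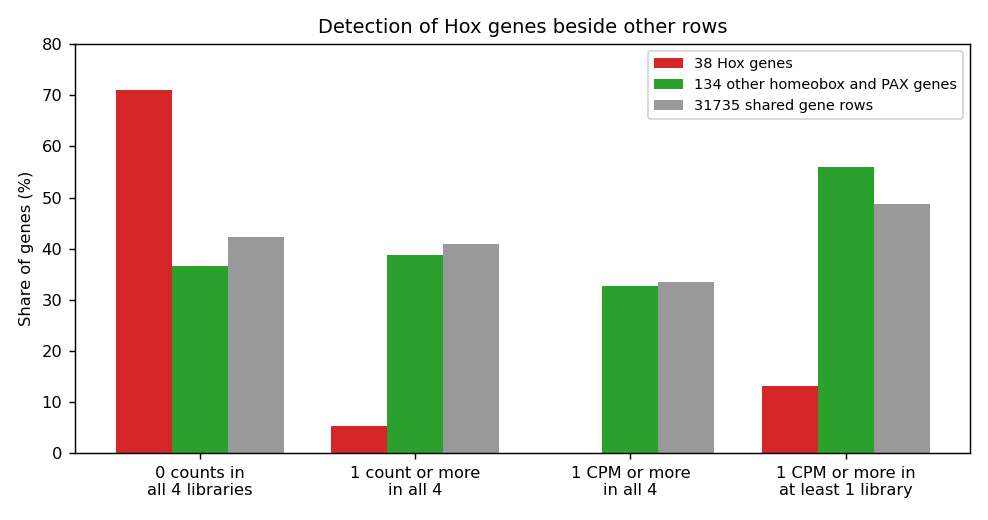
Share of genes (%) that met each of 4 detection rules, for the 38 Hox genes (red), 134 other homeobox and PAX genes (green) and the 31735 shared gene rows (grey). The Hox bar is the highest for 0 counts in all 4 libraries (71.1%) and is at 0 for 1 CPM or more in all 4.

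The libraries held 21140265, 15556918, 12731825 and 15315942 gene counts in replicates 1 to 4. A count of 0 therefore allows a level of up to 3 counts, which is 0.142, 0.193, 0.236 and 0.196 CPM. These floors and the intervals given below cover counting error only. The row of the ribosomal RNA precursor, Rn45s, took 24.2% of replicate 3 and 9.29% of replicate 4, against 1.68% and 1.61% of replicates 1 and 2, which lowers the CPM of every other row there. The number of Hox genes with at least 1 count was 4, 5, 4 and 8 in replicates 1 to 4. If every library had the size of the smallest, the expected numbers would be 3.93, 4.46, 4 and 7.82, in the same order as before apart from the tie. Shared rows at 1 CPM or more were also most in replicate 4, at 13346 against 12394 to 12899 in the others. The share of all rows with at least 1 count in each library is not given here, so the Hox numbers cannot be set against it.

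The 38 Hox genes together had 314 counts in the 4 libraries. The sums were 90, 27, 29 and 168 counts in replicates 1 to 4. As levels these were 4.26 CPM in replicate 1 (exact 95% Poisson interval 3.42 to 5.23), 1.74 in replicate 2 (1.14 to 2.53), 2.28 in replicate 3 (1.53 to 3.27) and 11.0 in replicate 4 (9.37 to 12.8). Replicate 4 stood above the other libraries, and its interval did not overlap theirs. The mean was 4.81 ± 4.25 CPM (SD, n = 4), and 2.76 CPM without replicate 4.

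The libraries differed in which of the 38 genes held most counts. Hoxd8 held 82.2% of them in replicate 1, Hoxa2 48.1% in replicate 2, Hoxd3 82.8% in replicate 3 and Hoxa2 36.9% in replicate 4. Hoxa2 and Hoxd1 had counts in every library, and Hoxb3 in 3 of 4. At least 10 counts over the 4 libraries were found for 6 members, which hold 301 of the 314 counts (95.9%). In 4 of these 6 (66.7%), 1 library held at least 90% of the gene's counts. Other rare rows showed this too. Among the 2960 rows with 10 to 83 counts in all, 83 being the highest total of a Hox gene, the share was 34.6%, and over all 16356 rows with at least 10 counts it was 8.47%. By Dixon's 95% criterion for 4 samples, 1 library stood apart for 4 of the 6 genes, beside 44.7% of those 2960 rows and 17.2% of the 16356. The 90% limit and the range of counts were chosen after the values were seen.

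**Figure D2:**
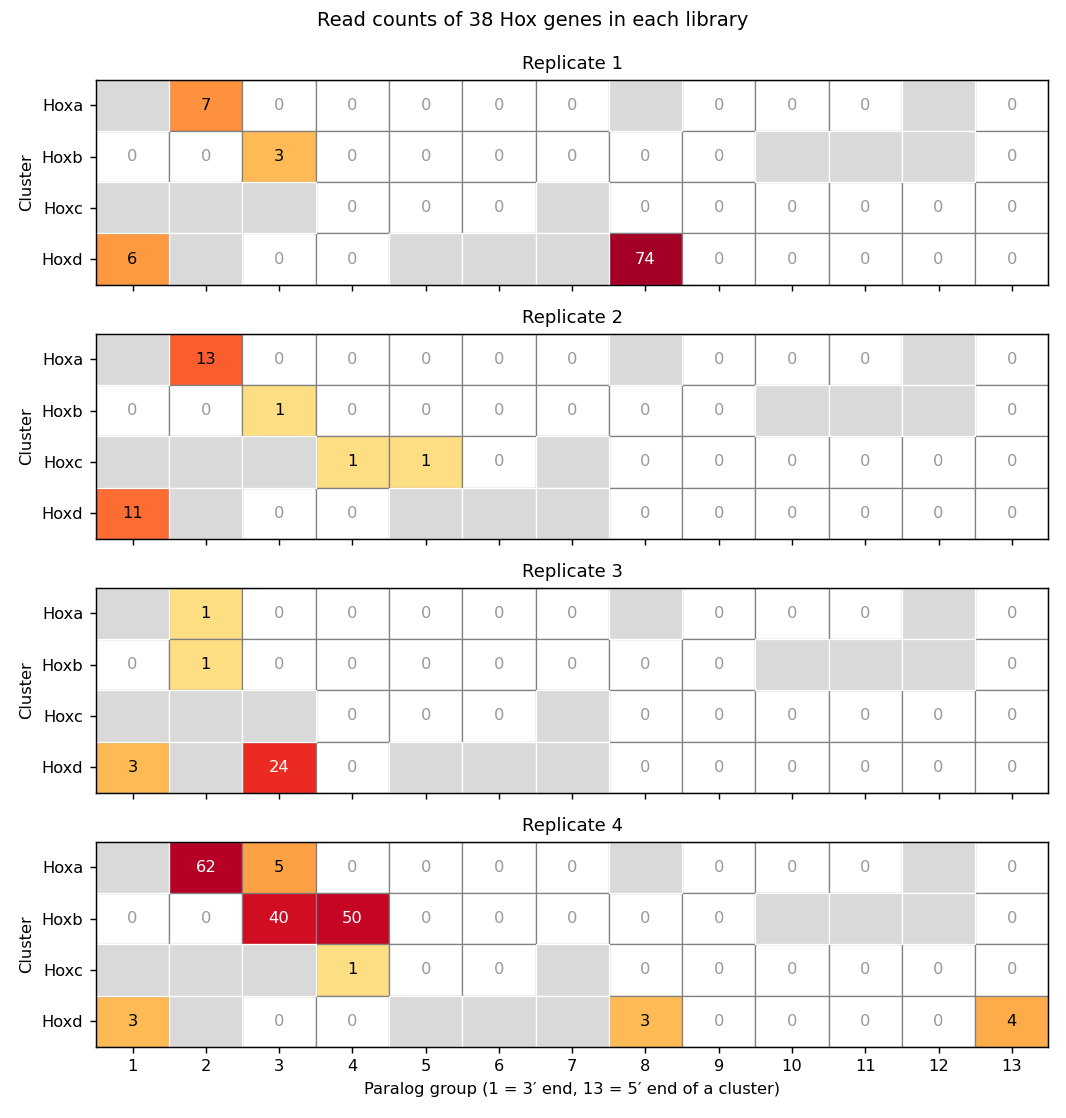
Read counts of 38 Hox genes in each library, with clusters down the side and paralog groups 1 to 13 along the bottom. Grey fields hold none of the 38 genes, white fields are at 0 counts, and darker fields have more counts. The counts sit at different places in different libraries, with 74 for Hoxd8 in replicate 1, 24 for Hoxd3 in replicate 3, and 62, 50 and 40 for Hoxa2, Hoxb4 and Hoxb3 in replicate 4.

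In 3 of 4 libraries the low paralog numbers held most of the counts. Groups 1 to 5 have 14 of the 38 genes. Of these 14, 9 had a count in some library and 5 had none, where 42.2% of all shared rows had none. Groups 1 to 5 hold 233 of the 314 counts (74.2%). Pooled without replicate 4 they hold 72 of 146 counts (49.3%), and without replicate 1 they hold 217 of 224 (96.9%). Groups 6 to 13 have 24 genes, of which 2 had a count. Groups 6, 7 and 9 to 12 were at 0 in every member and library. Within single libraries, groups 1 to 5 held 17.8% of the Hox counts in replicate 1 (exact Clopper-Pearson 95% interval 10.5 to 27.3%), 100% in replicate 2 (87.2 to 100%), 100% in replicate 3 (88.1 to 100%) and 95.8% in replicate 4 (91.6 to 98.3%). Replicate 1 is thus apart from the others, through the 74 counts of Hoxd8. The 4 libraries averaged 78.4 ± 40.5% (SD, n = 4), and 98.6% without replicate 1.

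**Figure D3:**
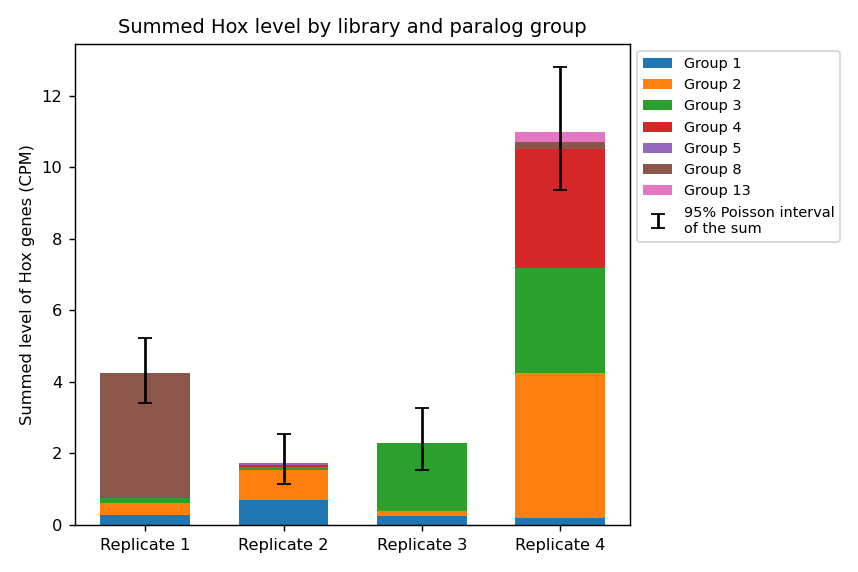
Summed level of the 38 Hox genes (CPM) in each library, stacked by paralog group, with the exact 95% Poisson interval of the sum. Replicate 4 reaches 11.0 CPM, mostly from groups 2, 3 and 4, while the sum of 4.26 CPM in replicate 1 comes mostly from group 8.

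Group 1 genes act earliest in hindbrain segmentation. Hoxd1 (ENSMUSG00000042448.5, chromosome 2, 74762980 to 74765142), which in mice is also known from pain-sensing neurons of the dorsal root ganglia, had 6, 11, 3 and 3 counts in replicates 1 to 4, or 0.284, 0.707, 0.236 and 0.196 CPM. It was low in all 4 libraries, its 95% intervals overlapped between all of them, and it was the most even of the 6 members of at least 10 counts, with 47.8% of its counts in its highest library. Hoxb1, which gives the facial motor neurons their identity, was at 0 counts in all 4.

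In group 2, Hoxa2 (ENSMUSG00000014704.10, chromosome 6, 52162417 to 52164831), which patterns the second hindbrain segment and the second pharyngeal arch, had 7, 13, 1 and 62 counts in replicates 1 to 4. These are 0.331, 0.836, 0.0785 and 4.05 CPM, and replicate 4 (95% interval 3.1 to 5.19) lay above the intervals of the other libraries, the nearest of which ends at 1.43 in replicate 2. Its paralog Hoxb2 had 0, 0, 1 and 0 counts. Other annotated genes overlap 15.0% of the exon length of Hoxa2 and 27.3% of that of Hoxb2, so that reads there may have been set aside or assigned to the other gene. Per kb of exon, Hoxa2 averaged 0.746 ± 1.04 CPM and Hoxb2 0.00563 ± 0.0113 (SD, n = 4). With a pseudocount of 0.1 CPM per kb the log2 ratio of Hoxa2 to Hoxb2 was 2.21 ± 1.83 (SD), above 0 in 4 of 4 libraries but by 0.24 in replicate 3, where both genes had 1 count and the ratio rests on exon length. Without division by length it was 0 there, above 0 in 3 of 4 libraries, and the exact sign-flip permutation test gave p = 0.25. The mean ratio was 1.42 without replicate 4 and 2.87 without replicate 3. Per kb, the exact two-sided sign-flip permutation test gave p = 0.125, the smallest that 4 libraries allow (2 of 16 sign patterns), and 0.125 after Benjamini-Hochberg adjustment over 3 ratios.

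Group 3 had counts in all of its members, in different libraries. Hoxb3 (ENSMUSG00000048763.11, chromosome 11, 96323326 to 96347930), a gene of the caudal hindbrain, had 3, 1, 0 and 40 counts in replicates 1 to 4, which is 2.61 CPM in replicate 4 (95% interval 1.87 to 3.56). Hoxd3 (ENSMUSG00000079277.9, chromosome 2, 74711927 to 74748442), known for shaping the first neck vertebrae, had 0, 0, 24 and 0 counts, which is 1.89 CPM in replicate 3 (1.21 to 2.8). Hoxa3, which is needed for the thymus and parathyroid, had 0, 0, 0 and 5 counts. The exons of these genes overlap other annotated genes, over 52.9% of their length for Hoxb3, 62.8% for Hoxd3 and 27.1% for Hoxa3. Without a known strand setting, reads of these stretches may have been set aside as ambiguous or may stem from the partner gene.

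In group 4, Hoxb4 (ENSMUSG00000038692.8, chromosome 11, 96318267 to 96321638), a gene of the most caudal hindbrain and of blood stem cells, had 0, 0, 0 and 50 counts in replicates 1 to 4. Its level in replicate 4 was 3.26 CPM (95% interval 2.42 to 4.3), and its exons share no base with an exon of another annotated gene. That interval lies above the floors of the other 3 libraries, which are 0.142 to 0.236 CPM. Hoxc4 had 0, 1, 0 and 1 counts, and Hoxa4 and Hoxd4 were at 0 throughout. Group 5 had 1 count in all, for Hoxc5 in replicate 2.

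Of the higher groups, Hoxd8 (ENSMUSG00000027102.4, chromosome 2, 74704615 to 74707933), a gene of the trunk, had 74, 0, 0 and 3 counts in replicates 1 to 4. Its level in replicate 1 was 3.5 CPM (95% interval 2.75 to 4.39), and its exons share no base with an exon of another annotated gene. Hoxd8 does lie within the span of the antisense gene Hoxd3os1, which was at 0 counts in all 4 libraries. Hoxd9 and Hoxd4, the neighbours of Hoxd8, were at 0 counts in replicate 1, though 52.3% of the exon length of Hoxd4 overlaps other annotated genes. Hoxd13, which shapes the digits, had 0, 0, 0 and 4 counts. The other 22 genes of groups 6 to 13 were at 0 counts throughout. By cluster, Hoxa had 88 counts, Hoxb 95, Hoxc 3 and Hoxd 128. These totals rest on single libraries. Without replicate 4, Hoxa had 21 counts and Hoxb 5, and without replicate 1, Hoxd had 48. Hoxc had 1 count without replicate 2 and 2 without replicate 4.

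Noncoding rows in or near the clusters had few counts. Of 15 listed genes with a shared row, 12 (80%) were at 0 counts in all 4 libraries, beside 42.2% of all rows. Among these were the long noncoding RNA Hotair and the microRNA rows Mir10a, Mir10b, Mir196a-1, Mir196a-2, Mir196b and Mir615. The microRNA rows are only 0.068 to 0.11 kb long, so their 0 counts say less about level than those of longer genes. Hotairm1 had 1, 0, 1 and 0 counts in replicates 1 to 4. Hoxaas2, which overlaps Hoxa3, had 0, 0, 0 and 5 counts, in the same library and number as Hoxa3. Haglr, between Hoxd3 and Hoxd1, had 0, 0, 0 and 4 counts.

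Genes flanking the clusters differed in level. Evx2, an even-skipped homeobox gene 8.75 kb beyond Hoxd13 (chromosome 2, 74652991 to 74659557), had 0, 0, 7 and 783 counts in replicates 1 to 4, or 51.1 CPM in replicate 4. Hoxd13 had 0, 0, 0 and 4 counts in the same libraries. Evx1, its counterpart beyond the Hoxa cluster, was at 0 counts in all 4. Mtx2, a mitochondrial gene 60.7 kb beyond Hoxd1, was at 42.2, 19.5, 48.9 and 33.0 CPM. Of the 13 measured genes on the flanking list, 8 reached 1 CPM in all 4 libraries, beside 33.5% of all rows. Of the 8 listed genes that lie within 150 kb of a cluster, 3 did. The highest were Cbx5, 155 kb from Hoxc, at 547 ± 163 CPM, Atf2, 776 kb from Hoxd, at 480 ± 86.7, and Lnp, whose symbol was not placed in the annotation used, at 152 ± 31.9 (SD, n = 4). Skap1, beyond the 3′ end of Hoxb, had 1 count in all. Ttll6, beyond Hoxb13, was at 0, 3.41, 0.314 and 1.31 CPM. Snf8, Ube2z and Atp5g1 also lie within 150 kb of Hoxb but were not on the list. All of them reached 1 CPM in all 4 libraries, at 8.23 to 28.6, 53.8 to 109 and 33.4 to 230 CPM. The noncoding rows Gm53, within Hoxb, and D930007P13Rik, near Hoxc, were also unlisted and at 0 counts in all 4 libraries. Gm11529, an unlisted noncoding row 80.1 kb from Hoxb, had 1 count in all.

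En1, a gene that marks the midbrain and the Hox-free first hindbrain segment, was set beside the group 2 genes. Per kb of exon, Hoxa2 was at 0.187, 0.471, 0.0442 and 2.28 CPM in replicates 1 to 4, against 19.4, 12.1, 8.86 and 11.2 CPM for En1. Hoxa2 thus stood 104-fold lower than En1 in replicate 1 (exact 95% interval 50.2 to 259), 25.7-fold lower in replicate 2 (14.9 to 48.5), 200-fold lower in replicate 3 on 1 count (35.7 to 7935) and 4.93-fold lower in replicate 4 (3.78 to 6.54). The gap was smallest in replicate 4, and its interval did not overlap the others. The log2 ratio of Hoxa2 to En1 per kb was -4.68 ± 1.79 (SD, n = 4), below 0 in 4 of 4 libraries, and -5.49 without replicate 4. Hoxb2 per kb was at least 476-fold, 218-fold and 200-fold lower than En1 in replicates 1, 2 and 4, where it had 0 counts, against a floor of 3 counts per library. In replicate 3, on 1 count, it was 393-fold lower (70.1 to 15593). The log2 ratio of Hoxb2 to En1 was -6.89 ± 0.58 (SD, n = 4), below 0 in 4 of 4 libraries. Both had p = 0.125 in the exact sign-flip permutation test, also after adjustment over 3 ratios, and 4 libraries cannot go lower. The log2 ratios against a gene at 0 rest on the pseudocount.

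The other genes of the rostral list varied and were not tested against Hox genes. Per kb of exon, the means of 4 of its 12 genes (En1, Lmx1a, Lmx1b and En2) lay above the Hoxa2 mean of 0.746 CPM and those of the other 8 lay below it. That Hoxa2 mean rests mostly on replicate 4, at 2.28 CPM per kb against 0.0442 to 0.471 in the others, and the order differed between libraries. Lmx1b, at 0 counts, lay below Hoxa2 in replicate 2, and En2, at 1.83, in replicate 4. Otx1 lay above Hoxa2 in replicates 1 to 3, at 0.558, 0.735 and 0.0724. Without division by length, Lmx1a was at 42.4 ± 18.4 CPM and En2 at 12.4 ± 4.59 (SD, n = 4). Gbx2, which sets the border of midbrain and hindbrain in the embryo, and Fgf8 were at 0 counts in all 4 libraries, and Otx2, a gene of forebrain and midbrain, had 0, 16, 8 and 2 counts. Of these 12 genes, 4 reached 1 CPM in all 4 libraries, about the share of all rows (33.5%).

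**Figure D4:**
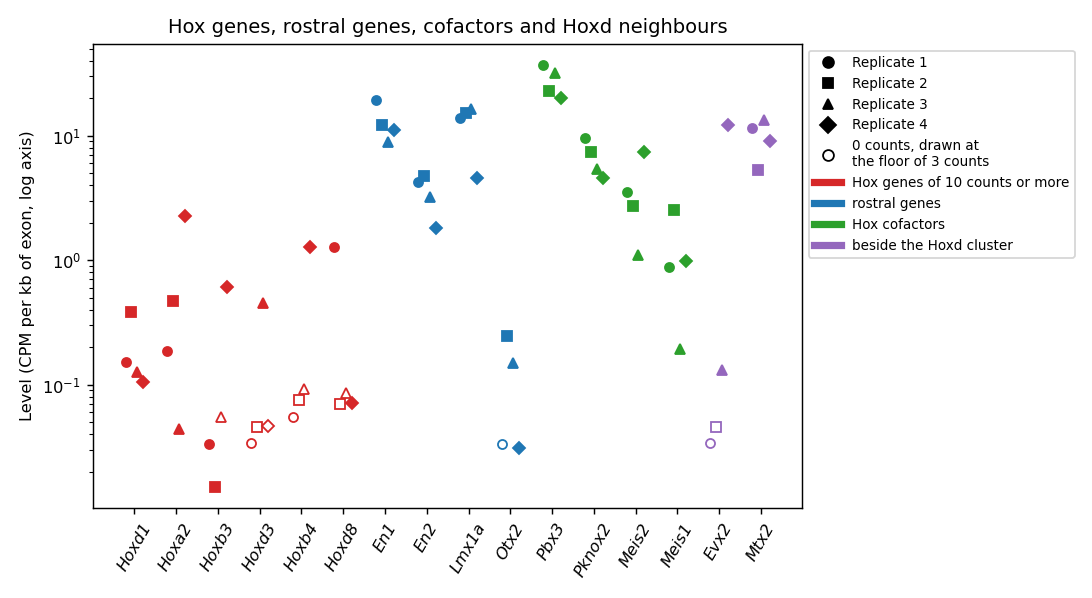
Levels (CPM per kb of exon, log axis) of the 6 Hox genes with at least 10 counts (red), rostral genes (blue), Hox cofactors (green) and Hoxd neighbours (purple), with 1 marker shape per library. Open symbols are at 0 counts and drawn at the floor of 3 counts. All red symbols lie under every En1 symbol, and Evx2 at 12.2 CPM per kb stands beside En1 at 11.2 in replicate 4 but far below it in the other libraries.

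The cofactors with which Hox proteins bind DNA were present. Of 8 PBC and MEIS class genes, 7 reached 1 CPM in every library, beside 33.5% of all rows. The 8 summed to 414, 321, 341 and 325 CPM in replicates 1 to 4. The mean of this sum was 350.0 ± 43.6 CPM (SD, n = 4). Pbx3 was at 171 ± 47.5 CPM, Pknox2 at 69.5 ± 22.9 and Meis2 at 44.3 ± 32.1 (SD, n = 4). These proteins also work with homeodomain partners other than Hox.

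Genes that set up Hox expression in the embryo were mixed. Egr2 (Krox20), which drives Hoxa2 and Hoxb2 in the third and the fifth segment and is also an activity-induced gene in adult neurons, had 2, 0, 0 and 61 counts in replicates 1 to 4, or 3.98 CPM in replicate 4. The caudal regulators Cdx1, Cdx2 and Cdx4 and the retinoic acid-degrading enzyme genes Cyp26a1 and Cyp26c1 were at 0 counts in all 4. Of 17 genes of this list, 4 reached 1 CPM in all 4 libraries, beside 33.5% of all rows. They were led by the retinaldehyde dehydrogenase gene Aldh1a1 at 25.6 ± 14.8 CPM and the receptor genes Rxra at 24.8 ± 16.4 and Rara at 17.8 ± 11.6 (SD, n = 4). Genes of the Polycomb and MLL complexes, which hold Hox clusters silent or active, were detected widely. Of 15, 13 reached 1 CPM in all 4 libraries, beside 33.5% of all rows. Kmt2a was at 694 ± 164 CPM, Kdm6a at 82.2 ± 22.2 and Suz12 at 65.1 ± 16.6.

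Replicate 4, with the highest Hox sum, also had the highest levels of several marker lists of other cell types. All 5 locus coeruleus genes and all 5 serotonin neuron genes were highest there. The summed locus coeruleus level was 89.5, 34.3, 76.3 and 335 CPM in replicates 1 to 4, with Dbh at 61.1 CPM in replicate 4 and 1.03 to 3.36 in the others. The serotonin sum was 3.6, 6.36, 9.66 and 42.8 CPM. The glycinergic sum was 21.1, 25.9, 11.8 and 95.8 CPM, with 3 of 5 genes highest in replicate 4 and Slc6a5 at 37.8 CPM there. The sum of 10 ependymal and choroid plexus genes was 8.18, 12.5, 18.7 and 142 CPM, with Ttr at 106 CPM in replicate 4, 5 genes highest there, and the defining genes Folr1 and Aqp1 at 0 counts in all 4 libraries. For cranial motor neurons the sum was 71.0, 172, 75.4 and 114 CPM, with 3 of 7 genes highest in replicate 4. Slc5a7 made up most of this sum, at 63.0, 168, 48.5 and 64.4 CPM, and was highest in replicate 2. Chat was at 1.56, 0.836, 22.3 and 25.7 CPM, Mnx1 at 0 counts in all 4 libraries, and Isl1 and Tbx20 at 0 counts in replicate 4. Of the glial lists, 5 of 7 astrocyte, 3 of 6 oligodendrocyte and 4 of 7 microglia genes were highest in replicate 4. Astrocyte genes summed to 1218, 1428, 446 and 2000 CPM, oligodendrocyte genes to 1417, 1716, 413 and 2375 CPM, and microglia genes to 30.6, 8.16, 9.82 and 45.6 CPM. The share of all rows that were highest in replicate 4 is not given here, so these numbers of genes cannot be set against it. Shared rows at 1 CPM or more numbered 12829, 12394, 12899 and 13346 in replicates 1 to 4, also most in replicate 4. The part of any of these cells in the Hox counts was not tested.

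Replicate 2 had the highest level of 7 of 8 rhombic lip and precerebellar genes (summed level 281, 838, 125 and 235 CPM in replicates 1 to 4) and of 6 of 8 cerebellar granule cell genes (630, 1477, 183 and 312 CPM). The lists share Zic1 and Etv1. The share of all rows that were highest in replicate 2 is not given here either. Of the remaining lists, the sums in replicates 1 to 4 were 67.4, 75.7, 14.9 and 41.2 CPM for leptomeningeal and fibroblast genes, and 194, 240, 204 and 145 CPM for endothelial and mural genes. Purkinje cell genes summed to 1461, 2488, 733 and 715 CPM, mostly from Itpr1 and Car8, while Pcp2 was at 1.09, 3.6, 5.66 and 11.6 CPM. General neuronal genes, with all 8 at 1 CPM or more in all 4 libraries (33.5% of all rows), summed to 24877, 22342, 11379 and 12196 CPM. Snap25 made up most of this sum, at 18577, 15908, 8131 and 6936 CPM, while Tubb3 was at 69.1, 50, 220 and 241 CPM and Eno2 at 277, 333, 495 and 629.

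**Figure D5:**
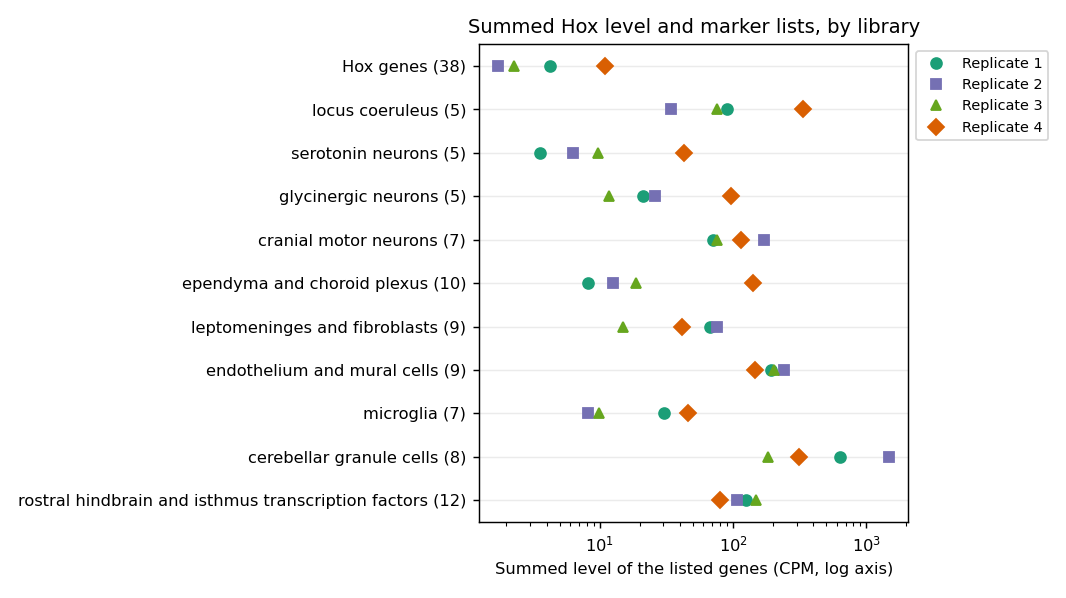
Summed level (CPM, log axis) of the 38 Hox genes and of marker lists, 1 symbol per library, with the number of measured genes in brackets. Replicate 4 (orange) is highest for the Hox genes at 11.0 CPM and for the locus coeruleus, serotonin, glycinergic, ependyma and choroid plexus, and microglia lists.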

How the data were processed

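Ribosome-bound RNA was sequenced in 4 immunopurified libraries. The authors deposited whole-number read counts for each gene symbol, not normalized. STAR 2.0.0e and HTSeq on mm10 are named in the submitters' processing notes, and the annotation and strand setting are not given in the sources used here. Summary rows and a row named unknown were left out of the library totals. In the files, ambiguous reads were 1.25% to 2.07% of all reads and reads with several alignments 28.6% to 37.2%.

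CPM were computed over all gene rows of a library (32531 rows in replicates 1 and 2, 32657 in replicates 3 and 4). To compare genes, each CPM was taken per kb of union exon from GENCODE M21, a length found for all 38 members described. Intervals are exact, at 95%, computed with scipy 1.17.1. Gene ratios were taken within libraries and tested by exact sign-flip permutation, with Benjamini-Hochberg adjustment over 3 ratios. The sign-flip test and the adjustment were checked on small inputs of known answer, and the coverage of the Poisson interval on simulated counts. Of the members, 1 is not reported here, nor are some context genes, and sums leave them out. With 1 group, no comparison between groups was made. Per kb, all 3 p-values are the smallest that 4 libraries allow, so they show only that the 4 ratios share a sign. They do not measure the spread between libraries, which is possibly only technical.

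Members with at least 10 counts in all were named with every library's value, and of the context lists the 3 highest genes of the Hox-related ones and some landmark genes. Lists of cell types are given as sums. Evx2, Ttll6 and other neighbours were named for their position. Members, lists and tests were chosen with earlier results of these data known. Alternatives were edgeR 4.0.16 and DESeq2 1.42.0 scaling, other totals, detection limits and pseudocounts, and leaving out each library. Promoter sequences were added after the values were seen, and protein sequences were not used here.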

Additional observations from a re-analysis of the deposited data

Results flagged for a closer look

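Of 17 values checked over the 4 libraries, 9 had 1 library far above the other 3 by Dixon's 95% criterion for 4 samples. About 1 in 20 groups of normally spread values meets it by chance, but rare genes meet it far more often. It was met by 44.7% of the 2960 rows with 10 to 83 counts in all and by 17.2% of the 16356 rows with at least 10. The values of 1 library are also not independent of each other. Among Hox genes these were Hoxd8 in replicate 1 at 3.5 CPM, Hoxd3 in replicate 3 at 1.89 CPM, and Hoxb3 and Hoxb4 in replicate 4 at 2.61 and 3.26 CPM. Hoxa2 was not among them. In replicate 4 the context genes Egr2 at 3.98 CPM, Evx2 at 51.1 CPM, Slc6a5 at 37.8 CPM, Dbh at 61.1 CPM and Ttr at 106 CPM stood apart in the same way.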

How the results depend on the processing

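The number of members at 1 CPM or more in at least 1 library was 5, and 2 to 5 when 1 library was left out, with the lowest value without replicate 4. It was 4 at a limit of 2 CPM and 6 at 0.5 CPM. The number with at least 90% of their counts in 1 library was 4 of those with 10 counts or more, and 2 to 4 with 1 library left out, again lowest without replicate 4. It stayed at 4 with a share of 80% or a minimum of 20 counts, both chosen after seeing the data. The members at 0 counts in all libraries numbered 27 to 30 without 1 library, and 30 with up to 2 counts taken as 0. The count at 1 CPM in every library was 0 under all 7 other settings and with each library left out. The mean summed level ran between 4.46 and 5.72 CPM over 5 other library totals. The pooled share of counts in groups 1 to 5 was 74.2%, and 49.3% to 96.9% with 1 library left out, an alternative chosen after seeing the data. The 3 log2 ratios kept the sign of their mean under 4 other settings each and without each library. That of Hoxa2 to Hoxb2 ran down to 0.99 with a pseudocount of 0.5 CPM per kb, since Hoxb2 is near 0, and without division by length its exact sign-flip permutation p was 0.25 in place of 0.125. No paired analysis between groups was possible because the series has 1 group, and the gene ratios were paired within libraries. Depth limits every 0, which allows a level of up to 3 counts in a library, and 5 of the 11 members with a count had no more than 5 in all.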
